A study of Mus musculus with 10 samples.

Results

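Lung DNA was examined in windows of 1000 bp that lay far from genes' start sites and carried methylation on only part of their CpGs in healthy animals. A window was taken when it lay on chromosomes 1 to 19, more than 10 kb from every RefSeq transcription start site of GRCm38, had at least 20 CpG calls in all 10 mice, and had 10 to under 50% of the pooled calls of the saline mice methylated. Of the 446336 windows deposited, 412413 were autosomal with enough calls, 224498 of these were distal, and 62039 met the limits on methylation. The windows were therefore chosen on the measured values of the saline mice, and those values are given as a description. Neighbouring windows overlap by 500 bp, so the 62039 windows merge into 29721 separate regions with a median length of 1500 bp.

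The mice were female BALB/c animals of 1 age, and DNA of the whole lung was captured with SureSelect Methyl-seq probes. In the saline group (n = 3) the mice received saline only. In the OVA group (n = 3) they were sensitized with ovalbumin (OVA) and alum injected into the peritoneum and then challenged with OVA through the nose, a model of allergic asthma. The third group (n = 4) was sensitized and challenged in the same way and also received, by mouth, DSE, an extract of Descurainia sophia seeds. The sample labels call this group Herb or herbal treatment, and the study describes no other herb. OVA and alum were thus shared by the OVA and DSE mice, and no group received DSE without OVA.

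CpG methylation is written by DNA methyltransferases, and most CpGs of mammalian tissue outside promoters and enhancers carry it. Where transcription factors occupy a distal enhancer, the CpGs around it are commonly low in methylation in that cell type and high in others. In a tissue of mixed cells such a region therefore often shows a level between these extremes. The lung holds alveolar and airway epithelium, endothelium, fibroblasts, smooth muscle and resident leukocytes, and allergic inflammation brings eosinophils, T cells and other leukocytes into it. All values below are averages over the cells of a lung, so a change in the mix of cells and a change within a cell type cannot be told apart.

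Sequence is shown for 8 windows, in each case for the 300 bases with the most CpGs, read from GRCm38 on the + strand with CpGs in capitals. The first 4 are given because they had the largest differences between DSE and OVA mice, a pair in each direction. They lie at chr3:37271135-37271434 (nearest start site that of Il21), chr13:71006701-71007000 (Mir466f-4), chr8:22873695-22873994 (an intron of Kat6a) and chr11:89914461-89914760 (Pctp).
Il21 window: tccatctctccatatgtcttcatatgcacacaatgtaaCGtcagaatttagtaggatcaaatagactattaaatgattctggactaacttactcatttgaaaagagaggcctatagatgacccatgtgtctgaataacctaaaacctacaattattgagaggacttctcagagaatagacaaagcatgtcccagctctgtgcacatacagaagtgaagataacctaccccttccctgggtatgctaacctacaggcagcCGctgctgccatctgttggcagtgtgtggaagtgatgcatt
Mir466f-4 window: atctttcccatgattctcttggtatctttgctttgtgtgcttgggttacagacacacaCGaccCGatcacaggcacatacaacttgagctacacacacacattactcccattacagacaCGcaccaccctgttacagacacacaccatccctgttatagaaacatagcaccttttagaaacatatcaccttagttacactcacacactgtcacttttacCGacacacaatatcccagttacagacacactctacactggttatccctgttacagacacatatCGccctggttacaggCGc
Kat6a window: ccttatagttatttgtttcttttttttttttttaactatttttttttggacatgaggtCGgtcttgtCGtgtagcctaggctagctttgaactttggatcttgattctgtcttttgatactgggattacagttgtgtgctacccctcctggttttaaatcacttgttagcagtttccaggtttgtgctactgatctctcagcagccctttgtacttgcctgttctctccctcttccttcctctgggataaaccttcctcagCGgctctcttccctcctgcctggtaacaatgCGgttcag
Pctp window: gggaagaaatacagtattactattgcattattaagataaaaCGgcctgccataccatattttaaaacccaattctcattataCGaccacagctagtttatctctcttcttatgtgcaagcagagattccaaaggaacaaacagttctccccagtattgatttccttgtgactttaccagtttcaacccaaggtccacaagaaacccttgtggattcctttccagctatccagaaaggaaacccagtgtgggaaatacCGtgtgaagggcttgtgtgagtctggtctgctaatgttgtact
These 4 stretches held 2, 6, 4 and 3 CpGs, of 2, 9, 8 and 6 in the whole windows of 1000 bp, over which methylation was measured.

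A second pair had the largest differences between OVA and saline mice, at chr4:34114548-34114847 (Spaca1) and chr10:84658024-84658323 (an intron of Polr3b). The last pair came from the longest unbroken runs of partly methylated windows that lay within a gene, at chr11:97534610-97534909 (Srcin1) and chr4:133042904-133043203 (an intron of Ahdc1).
Spaca1 window: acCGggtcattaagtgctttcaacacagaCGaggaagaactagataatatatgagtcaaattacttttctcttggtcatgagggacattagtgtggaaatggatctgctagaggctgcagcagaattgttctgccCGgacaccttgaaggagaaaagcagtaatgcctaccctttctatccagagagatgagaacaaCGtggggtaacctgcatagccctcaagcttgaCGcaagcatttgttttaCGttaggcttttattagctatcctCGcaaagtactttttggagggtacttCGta
Polr3b window: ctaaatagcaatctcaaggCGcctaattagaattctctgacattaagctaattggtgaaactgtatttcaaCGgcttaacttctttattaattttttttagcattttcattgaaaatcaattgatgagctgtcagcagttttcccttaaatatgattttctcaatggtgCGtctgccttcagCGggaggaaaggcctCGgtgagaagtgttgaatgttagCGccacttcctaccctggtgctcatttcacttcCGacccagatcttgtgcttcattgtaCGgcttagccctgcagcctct
Srcin1 window: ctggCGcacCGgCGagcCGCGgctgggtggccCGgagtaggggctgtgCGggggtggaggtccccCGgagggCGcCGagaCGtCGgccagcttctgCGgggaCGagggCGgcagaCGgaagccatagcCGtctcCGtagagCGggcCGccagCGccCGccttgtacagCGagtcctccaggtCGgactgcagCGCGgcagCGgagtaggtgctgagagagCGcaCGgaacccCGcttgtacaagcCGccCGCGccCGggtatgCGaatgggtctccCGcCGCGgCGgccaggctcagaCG
Ahdc1 window: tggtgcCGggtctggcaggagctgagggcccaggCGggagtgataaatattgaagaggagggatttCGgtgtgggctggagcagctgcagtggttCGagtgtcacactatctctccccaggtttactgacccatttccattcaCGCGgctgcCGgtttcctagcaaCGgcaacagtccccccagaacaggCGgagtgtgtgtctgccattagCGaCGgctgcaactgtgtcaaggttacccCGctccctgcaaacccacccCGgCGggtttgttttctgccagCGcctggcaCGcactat
The Spaca1 and Polr3b stretches held 8 CpGs each, the Ahdc1 stretch 16 and the Srcin1 stretch 40.

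Total depth over the 412413 windows was 299758015 to 400802058 CpG calls per mouse, of which the partly methylated distal windows took 37152771 to 50239153. The median window had 340 to 503 calls per mouse. Between mice of a group the median SD of a window was 3.17 percentage points in saline, 3.39 in OVA and 3.29 in DSE mice, where counting error alone would give 2.33, 2.36 and 2.17. As a check of the tissue, windows that overlap a start site and had enough calls were present for 4 of 10 lung genes. Averaged over all 10 mice, methylation there was 2.73% at Nkx2-1, the transcription factor of lung epithelium. It was 18.5% at Cldn5, a tight junction gene of endothelium, and 60.5 and 66.3% at the surfactant genes Sftpa1 and Sftpc. Promoters of 7 liver genes stood at 43.1 to 82.0%, but those of 5 brain genes at 1.84 to 29.2%, so promoter methylation did not by itself mark the tissue as lung.

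The windows had a median of 12 CpGs and a GC content of 46.7%. Of them, 33148 (53.4%) were intergenic, 23028 (37.1%) overlapped introns only and 5863 (9.45%) overlapped exons. Among all distal windows, partial methylation in saline lung was found in 29.5% of intergenic, 27.8% of intronic and 20.1% of exonic windows. It became less frequent with distance from the nearest start site, from 28.6% at 10 to 20 kb to 21.3% beyond 500 kb. The share hardly varied between chromosomes, from 26.1% on chromosome 10 to 29.7% on chromosome 4. A total of 11064 genes had the nearest start site of at least 1 window. Nearness does not show that a window acts on that gene.

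The methylation of the windows was 32.6, 31.5 and 32.2% in the 3 saline mice as the mean over windows. It was 34.2, 35.8 and 35.9% in the OVA mice, and 34.7, 36.4, 35.6 and 35.9% in the DSE mice. Every OVA and DSE mouse was thus above every saline mouse, while OVA and DSE mice overlapped. The means were 32.1% ± 0.538 in saline (SD, n = 3), 35.3% ± 0.925 in OVA (n = 3) and 35.6% ± 0.700 in DSE mice (n = 4). OVA mice exceeded saline mice by 3.22 percentage points and DSE mice by 3.55 points, with no test because the saline values chose the windows. Both differences use the same saline mice.

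A window chosen for a low level in a few mice can look higher in any other mouse. The choice was therefore repeated on 2 saline mice at a time, and the saline mouse left out was read in the windows so chosen. The levels of the saline mice left out were 33.1, 31.7 and 32.7%, over 62325, 61749 and 61988 windows. The OVA mean in the same windows was 35.6, 35.2 and 35.5%, which is 2.49, 3.5 and 2.85 points higher. Each OVA mouse, the lowest at 34.1%, stood above each saline mouse read in this way. With the limits set on the pooled calls of all 10 mice in place of the saline mice, the difference was 1.99 points, with means of 31.0 and 33.0%.

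Other classes of windows were also set by their level in the saline mice. Those at 50 to under 80% in saline had means of 66.3% in saline, 67.8% in OVA and 67.3% in DSE mice. Those at 80% or more had 88.0, 87.8 and 87.1%, and those under 10% had 4.75, 5.58 and 6.28%. Promoter windows within 1 kb of a start site and at 10 to under 50% had 26.6, 27.9 and 29.2%. The step from saline to OVA was thus 3.22 points in the partly methylated distal windows, against 1.28 in promoter windows of the same limits and 1.49, -0.15 and 0.83 in the other distal classes, without a test. These steps use the saline values that set the classes. Saline mice left out of the choice were read for the partly methylated distal windows only, so the steps are a description. In the 29734 windows under 2% in saline, where cytosines left unconverted by bisulfite would also count as methylated, methylation was 1.12 to 1.15% in saline, 1.1 to 1.21% in OVA and 1.19 to 1.38% in DSE mice.

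**Figure D1:**
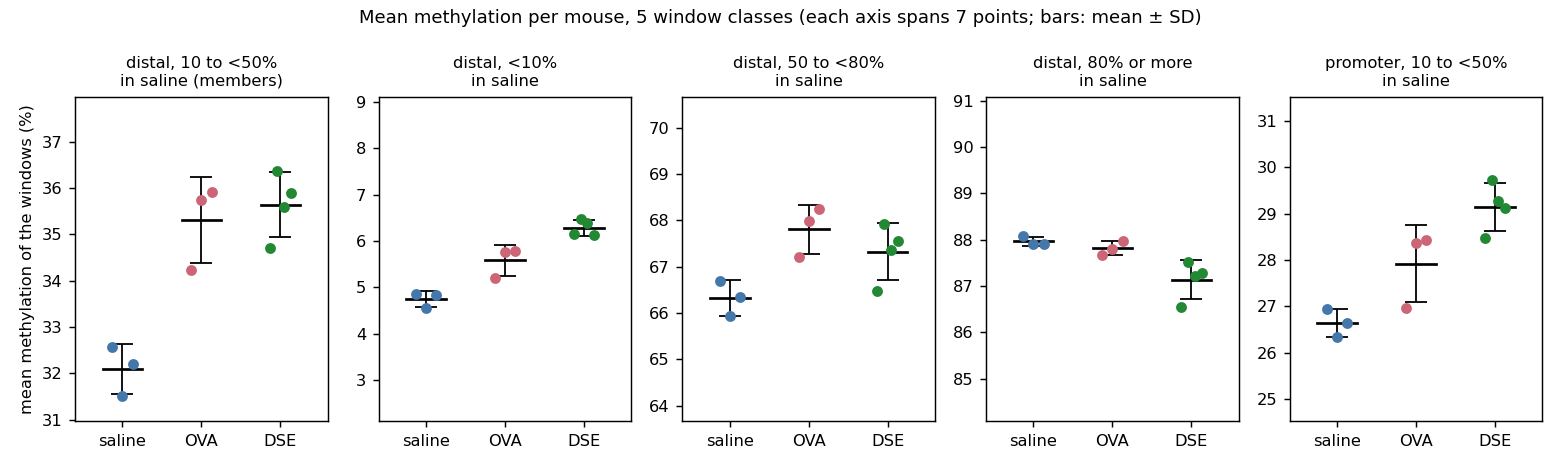
Mean methylation (percent of CpG calls) of each mouse, 1 point per mouse with bars at the group mean ± SD, for the partly methylated distal windows (members) and 4 other classes of windows set by saline level and distance from start sites, each on an axis of equal span that does not start at 0. In the partly methylated distal windows the saline mice lie between 31.5 and 32.6%, and the OVA and DSE mice overlap at 34.2 to 36.4%.

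The comparison of DSE with OVA mice asks whether methylation differed with DSE in mice with the same allergen exposure. The saline mice chose the windows and enter the estimate of spread in limma, but not the difference itself. The mean over the windows was 0.33 points higher in DSE mice (two-sided exact permutation test over mice, p = 0.571, 4 against 3 mice). The sign turned to -0.20 without OVA mouse 1 (exact p = 0.800). The smallest p that 3 against 4 mice allow is 0.0571, so no single value of this comparison could pass 0.05. Over single windows the median difference was 0.21 points, and 52.6% of windows were higher in DSE mice.

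Relative to fully methylated distal windows the partly methylated ones stood closer in DSE mice. The distance from the mean of windows at 80% or more was -53.4, -52.1 and -52.1 points in the OVA mice and -51.8, -51.2, -51.6 and -51.4 in the DSE mice, with no overlap. The group means differed by 1.01 points (two-sided exact permutation test, p = 0.0571, adjusted p = 0.0571 over 3 classes compared). Against windows at 50 to under 80% the difference was 0.815 points, and against partly methylated promoters it was -0.905 points, with the same p. Without OVA mouse 1 the first was 0.549 and the second 0.580 points (exact p = 0.133 for both). That p is the smallest the test allows with 1 OVA mouse fewer. The classes compared also differed, DSE minus OVA, by -0.679 points at 80% or more, -0.486 at 50 to under 80% and 1.23 in promoters. The partly methylated distal windows themselves differed by 0.33 points.

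Window by window, a likelihood ratio test of the pooled calls (adjusted p under 0.01 by Benjamini-Hochberg, groups 10 or more points apart) called 1211 of the 62039 windows (1.95%) higher and 536 (0.864%) lower in DSE than in OVA mice. Over all 412413 windows 0.887% were called higher and 0.698% lower. The test treats CpG calls as independent and takes no account of the spread between mice. Among the windows called, OVA and DSE mice did not overlap in 992 of the higher and 359 of the lower ones. Without regard to the calls, every DSE mouse was above every OVA mouse in 4384 windows (7.07%, against 5.71% of all windows) and below in 2386 (3.85%, against 4.59%).

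With the spread between mice taken into account by limma on log2 ratios of methylated to unmethylated calls, 227 windows (0.366%, against 0.359% of all windows) were higher and 31 (0.05%, against 0.0749%) were lower in DSE mice at an adjusted p under 0.05. By this test the share of the windows lay near that of all windows. The counts depended on single mice. They fell to 10 higher and 5 lower without OVA mouse 1, 26 and 3 without OVA mouse 3, 5 and 2 without DSE mouse 1, 47 and 7 without DSE mouse 2, 10 and 4 without DSE mouse 3, and 114 and 14 without DSE mouse 4. Without OVA mouse 2 they were 173 and 19.

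The depth of the groups differed at many of the windows called in DSE vs. OVA. After scaling the mice to the same median depth, DSE mice had a median of 0.946 times the calls of OVA mice, with the lowest decile at 0.764 and the highest at 1.55. In windows called higher in DSE mice that median was 1.5, and in windows called lower it was 1.37. The 7853 windows (12.7%) whose ratio was outside 1.5 times in either direction held 621 (51.3%) of the higher and 237 (44.2%) of the lower calls, and 145 (56.2%) of those by limma. The remaining 590 higher and 299 lower calls lay within 1.5 times. The windows outside 1.5 times had a median of 8 CpGs and 42% GC, against 13 CpGs and 47.4% GC for those within.

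The share of windows called higher in DSE mice was larger at larger ratios. It was 1.09% (590 of 54186) where the depth was within 1.5 times, 7.10% (279 of 3930) at 1.5 to under 2 times more calls in DSE mice, and 11% (325 of 2967) at 2 or more times. The share called lower followed the same order, from 0.552% (299) to 2.21% (87) and 4.48% (133). In the 956 windows with at least 1.5 times fewer calls in DSE mice, 17 (1.78%) were called in each direction. Over all windows the share called higher also went from 0.557% within 1.5 times to 5.10% at 2 or more times. The part of depth in these calls was not tested. In the windows within 1.5 times the mean difference between DSE and OVA mice was 0.25 points.

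**Figure D2:**
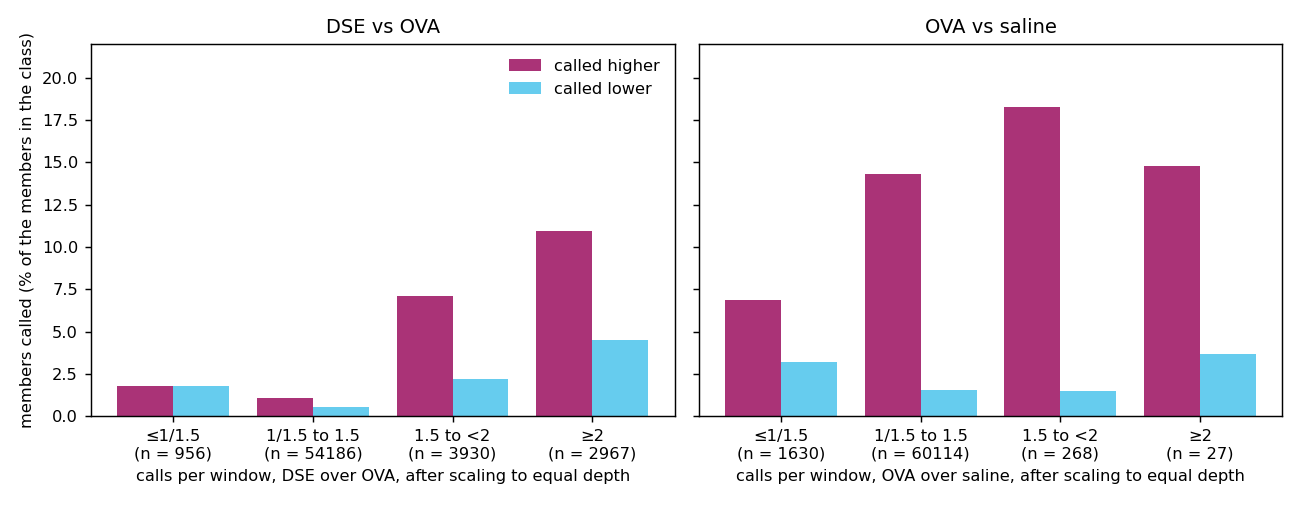
Percent of partly methylated distal windows (members) called higher or lower (bars, axis from 0) in DSE vs. OVA (left) and OVA vs. saline mice (right), by the ratio of calls of the first to the second group after scaling to the same median depth. On the left the share called higher is 1.09% within 1.5 times and 11% at 2 or more times, while on the right 60114 of the windows lie within 1.5 times.

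The window with the largest gain in DSE over OVA mice was at chr3:37270501-37271500, 37.9 kb from the start site of Il21, a cytokine of helper T cells. It had 6.25, 2.27 and 23.9% methylation in saline mice, 5, 0 and 2.86% in OVA mice and 63.5, 52.7, 66 and 53.4% in DSE mice. All 4 DSE mice were far above all other mice, and the difference from OVA mice was 57.4 points (likelihood ratio test, adjusted p = 1.06e-33; limma, adjusted p = 0.0161). The OVA mice had 35 to 40 calls there and the DSE mice 146 to 252, on the 2 CpGs shown above.

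Of the other 5 windows with the largest gains, Mir466f-4, Mir21b, Gnb5 and Gm16835 had 3.69 to 6.61 times more calls in DSE than in OVA mice after scaling. Their differences were 50.3, 49.7, 41.2 and 39.7 points. The fifth, at chr4:140234501-140235500 in an intron of Igsf21, a cell adhesion gene, was sampled alike in both groups, with a ratio of 1.08. Its OVA mice stood at 12.1, 47.2 and 36.4% and its DSE mice at 75, 84, 76.3 and 64.6%, with no overlap. The difference was 41.6 points (likelihood ratio test, adjusted p = 8.14e-09), but limma gave an adjusted p of 0.0980 and the window had 21 to 80 calls per mouse.

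Among the windows lower in DSE mice, that in an intron of Kat6a (chr8:22873001-22874000), which encodes a histone acetyltransferase, changed most. Saline mice had 34.2, 29.2 and 39.6%, OVA mice 50, 62.2 and 52.4%, and DSE mice 10.3, 20.9, 20.5 and 11.9%. DSE mice lay below both other groups, 39.7 points under OVA mice (likelihood ratio test, adjusted p = 3.45e-10; limma, adjusted p = 0.0143), with a depth ratio of 2.44. The window 87.9 kb from Pctp, a phosphatidylcholine transfer protein, fell by 36.5 points, from 47.4, 45.1 and 60.4% in OVA mice to 11.1, 15.8, 15.2 and 17.6% in DSE mice, with a depth ratio of 5.19.

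The next 4 fell by 29.3 to 30.9 points. They lay nearest to Gm17089, Mdga2, Gm36283 and Gm3072. For Gm36283, a window within an intron of Pawr, a regulator of apoptosis, the depth ratio was 0.874, and OVA mice had 65.8, 63.1 and 39.7% against 30.9, 23.1, 32.6 and 23.0% in DSE mice. The groups did not overlap, but the fall came with an OVA mouse close to the DSE range and a limma adjusted p of 0.0766.

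**Figure D3:**
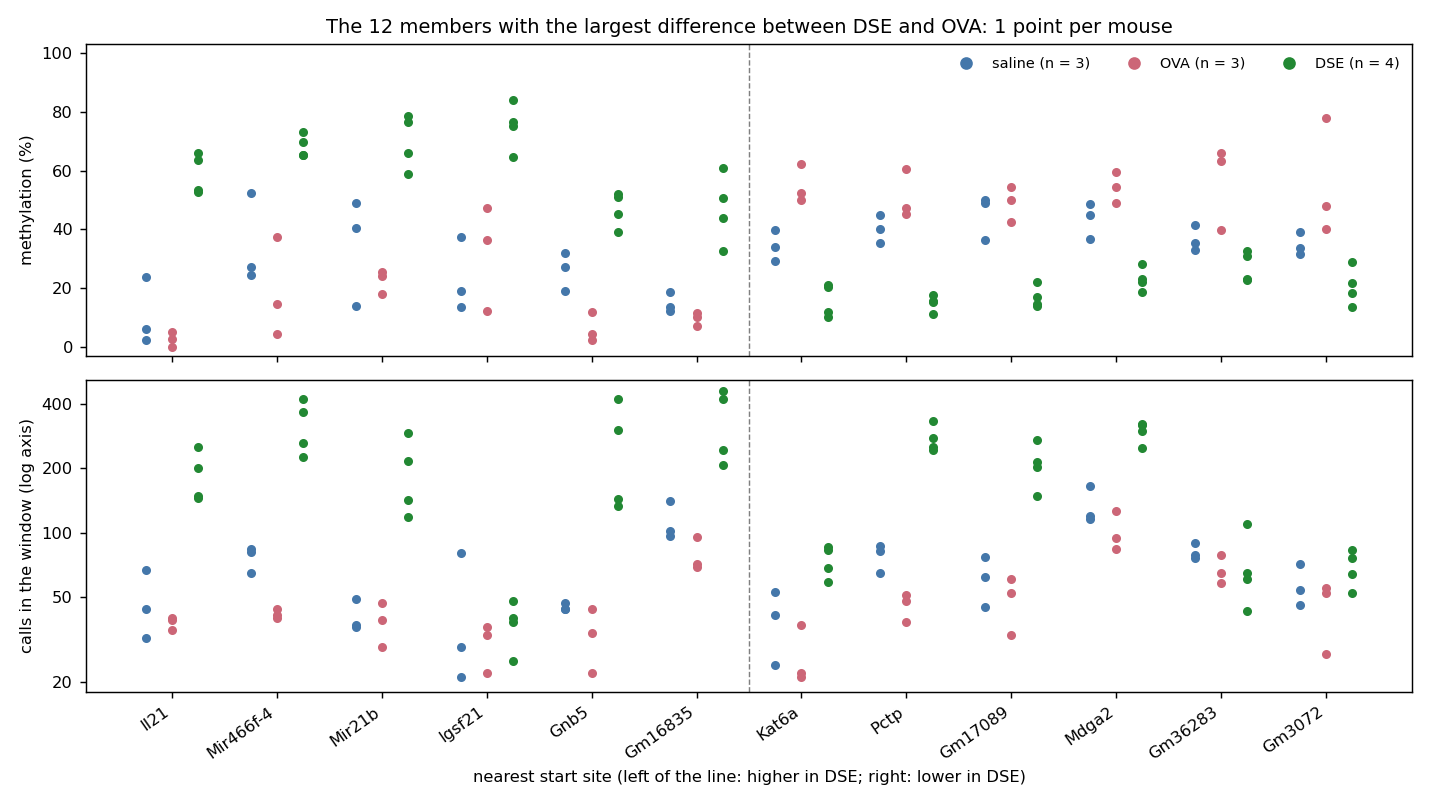
Methylation (percent, upper panel) and number of CpG calls (log axis, lower panel) of each mouse in the 6 windows with the largest gain and the 6 with the largest loss in DSE vs. OVA mice, 1 point per mouse. In the Il21 window the DSE mice have 52.7 to 66% methylation on 146 to 252 calls, and the OVA mice 0 to 5% on 35 to 40.

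The window with the smallest limma p lay at chr7:125415001-125416000, 28.6 kb from Kdm8, a gene of the JmjC oxygenase family. All 3 OVA mice had 0 methylated calls there, of 50, 43 and 38. Saline mice had 23.5, 20.3 and 25.7%, and DSE mice 26.2, 29.5, 35.9 and 29.8%, so the 3 groups did not overlap, with OVA mice lowest and DSE mice highest. DSE exceeded OVA mice by 30.1 points (limma, adjusted p = 9.01e-05; likelihood ratio test, adjusted p = 3.91e-17), with 2.26 times more calls in DSE mice.

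Next came windows near Dcbld1 (28.7 points) and Mrap2, an accessory protein of melanocortin receptors (27.2 points), with limma adjusted p-values of 0.00737 and 0.00884. The Dcbld1 window had 28.9, 29.3 and 32.3% in saline, 27.2, 25.4 and 21.5% in OVA and 53.3, 48.9, 55.5 and 57.2% in DSE mice. Here DSE mice stood apart from both other groups. The remaining windows of the 10 with the smallest limma p were 2 at Pctp with the same calls, a second at Dcbld1, 1 each at Rabgap1l (35.3 points) and Qsox1 (28.4 points), and 2 at Ppp1r1c with the same calls. The Ppp1r1c pair had the most calls, 621 to 1202 per mouse, and the narrowest spread, with OVA mice at 7.99, 8.21 and 8.20% and DSE mice at 19.2, 18.7, 17.9 and 15.2% (9.63 points, limma adjusted p = 0.0120). All 10 had between 1.37 and 5.19 times more calls in DSE than in OVA mice.

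Picked after their values were seen, the windows with the largest changes among those within 1.5 times in depth were, besides Igsf21, Gm36283 and Gm3072, near 4930519L02Rik, 4930453L07Rik and Gp2 (higher by 35.4, 32.3 and 31.2 points) and near Prima1 and Denn2b (lower by 28.4 and 27.0 points). The 4930519L02Rik window had 188 to 760 calls. Its OVA mice were at 6.43, 9.04 and 9.30% and its DSE mice at 41.7, 29.8, 67.4 and 42.8%, so the DSE mice also differed widely among themselves.

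In OVA vs. saline mice the same likelihood ratio test called 8781 windows (14.2%) higher and 976 (1.57%) lower, where 4.89% and 2.64% of all windows were called. DSE vs. saline, with the same saline mice, gave 9498 (15.3%) higher and 984 (1.59%) lower, against 5.09% and 3.13% of all windows. Without regard to calls, every OVA mouse was above every saline mouse in 17103 windows (27.6%, against 18.1% of all windows) and below in 4918 (7.93%, against 9.12%). Nothing is read from these shares, since a window at 10 to under 50% in saline mice has more room above it than below. The 8781 windows averaged 33.2% in saline, 47.6% in OVA and 45.6% in DSE mice. The 976 averaged 40.8, 27.9 and 33.0%. Of 59314 windows chosen on all 10 mice, 6424 were called higher and 2000 lower in OVA vs. saline mice. Depth differed little here: 96.9% of windows were within 1.5 times between OVA and saline mice and held 98.1% of the higher and 94.2% of the lower calls.

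At 10 to 20% in saline 1170 of 12102 windows (9.67%) were called higher and 20 (0.165%) lower in OVA mice. At 20 to 30% there were 2129 (15.4%) and 89 (0.645%) of 13805. The bin of 30 to 40% had 2680 (16.2%) and 234 (1.42%) of 16504, and that of 40 to 50% 2802 (14.3%) and 633 (3.2%) of 19628. Over all windows tested 4.89% were called higher and 2.64% lower. The saline values set these bins, and a window at 10 to 20% has little room to fall by 10 points. Nothing is therefore read from these shares. Within each bin the mean over windows was higher in OVA than in saline mice, going from 15.1 to 17.8%, from 25 to 28.5%, from 35 to 38.5% and from 45.1 to 48.3%. In OVA mice 9712 windows (15.7%) reached 50% or more and 955 (1.54%) were under 10%.

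The largest gains of OVA over saline mice were at single windows of 44.2 to 34.1 points, nearest to Spaca1, Twf1, Ankrd44, Grsf1, Mir467g and Ctbp2. Near Spaca1, which encodes an acrosome protein of sperm, saline mice had 32.6, 29.3 and 12.7%, OVA mice 65, 61.5 and 75.7%, and DSE mice 35.6, 44.3, 35.6 and 42.7%. DSE mice lay between the other groups without touching either, 26.6 points under OVA mice (likelihood ratio test, adjusted p = 6.07e-06; limma, adjusted p = 0.129). In the intron of Ankrd44 the saline mice had 51.9, 50 and 46.4%, the OVA mice 86.7, 84.9 and 85.0%, and the DSE mice 76.7, 78.4, 71.4 and 89.8%. There DSE and OVA mice overlapped. These windows had 20 to 113 calls per mouse, apart from Grsf1 with up to 454.

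The largest losses were 22.4 to 25.9 points, at Polr3b, Zfp609, Tbc1d5, Kdm8, Ankrd46 and Fam117b. In the intron of Polr3b, a subunit of RNA polymerase III, saline mice had 31.8, 28.6 and 58.3%, OVA mice 19.1, 17.2 and 15%, and DSE mice 22.2, 20.6, 15 and 19.4%. OVA and DSE mice overlapped and both lay below saline. In the intron of Zfp609, a zinc finger gene, the values were 38.9, 47.6 and 33.3% in saline, 0, 0 and 30.8% in OVA and 36.7, 46.1, 43.1 and 28.9% in DSE mice. Here DSE mice overlapped saline mice, and their depth was 5.62 times that of OVA mice.

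Windows were next grouped by nearest gene into 10 lists of genes that mark lung cell types, leukocytes or other tissues, chosen with earlier results of these data known. Endothelial genes had the most windows (262, at 29 of 36 genes) and the most gains. The mean was 33.2, 30.9 and 31.8% in saline mice, 35.5, 37.3 and 38.3% in OVA mice, and 36.1, 38.2, 37.0 and 38.1% in DSE mice. OVA and DSE mice overlapped each other and no saline mouse. In OVA vs. saline 64 windows (24.4%) were called higher and 1 (0.382%) lower, where 14.2% and 1.57% of all partly methylated distal windows were, with a median difference of 4.87 points, against 2.57 over all partly methylated distal windows and 0.72 over all windows tested.

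Epas1, which encodes the hypoxia-inducible factor HIF-2α, had 30 windows, of which 16 were called higher and none lower, with means of 31.6, 42.8 and 42.6% in saline, OVA and DSE mice. In its intron, at chr17:86795001-86796000, saline mice had 43.9, 41.6 and 40.1%, OVA mice 57.6, 60.2 and 68.7%, and DSE mice 53.0, 57.1, 54.3 and 56.1%, on 796 to 1117 calls each. Saline mice were the lowest, and every OVA mouse was above every DSE mouse, with a pooled difference of DSE from OVA of -6.41 points, short of the 10 required for a call. Tek, the angiopoietin receptor, had 6 of 7 windows called higher (29.8, 44.7 and 44.1%), Ednrb, an endothelin receptor, 5 of 8, Egfl7 4 of 8, Bmpr2 4 of 6, Ptprb 4 of 10 and Pecam1 3 of 12. The endothelial genes were not uniform. Fli1, an ETS transcription factor, had none of 16 called, with a median of -2.80 points. Kdr, with as many windows as Epas1, had 3 of 30 called higher and a median of -0.12 points. Flt1 had 7 of 26 called higher and a median of -0.13 points. Erg had 2 of 17 called higher and 1 lower, and Acvrl1 had none of 14 called.

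Alveolar epithelial genes (161 windows at 22 of 34 genes) had means of 33.8% ± 0.152 in saline, 38.4% ± 0.881 in OVA and 38.2% ± 1.26 in DSE mice. In OVA vs. saline 21 windows (13%) were called higher, a share near the 14.2% of all partly methylated distal windows, and none lower, with a median difference of 4.71 points. Cdh1, the epithelial cadherin, and Cebpa, a transcription factor of alveolar cells, had 4 each, of 15 and 9 windows. The window 15.7 kb from Cebpa had 25.6, 35.3 and 29.5% in saline, 55.8, 55.4 and 51.2% in OVA and 49.0, 54.3, 39.1 and 63.7% in DSE mice, so the last 2 groups overlapped above saline. In an intron of Clic5 the saline mice had 34.9, 38.0 and 29.4%, the OVA mice 61.5, 53.0 and 59.3% and the DSE mice 45.1, 56.1, 54.1 and 59.1%.

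Airway epithelial genes (97 windows, 16 of 22 genes) went from 30.2% ± 0.229 in saline to 33.3% ± 1.1 in OVA and 33.6% ± 0.381 in DSE mice, with 5 windows (5.16%) called higher and none lower in OVA vs. saline and a median of 3.19 points. The window 26.4 kb from Agr2, a mucus cell protein of the endoplasmic reticulum, had 40.6, 33.7 and 37.8% in saline, 46.5, 60.3 and 60.6% in OVA and 54.6, 52.6, 60.7 and 52.3% in DSE mice. Mesenchymal genes (141 windows, 25 of 38 genes) went from 33.2% ± 0.876 to 35.8% ± 1.07 and 36.5% ± 1.19, with 17 (12.1%) called higher and 2 (1.42%) lower and a median of 2.06 points. Hhip, an inhibitor of hedgehog signalling, had 3 of 3 windows called higher, Des, the muscle filament desmin, 3 of 6, and Gli2, a hedgehog transcription factor, 3 of 27, while Tbx5, a transcription factor of the lung mesenchyme, had 2 of 12 higher and both lower calls. Several had negative medians with no window called in either direction, among them the collagen chains Col5a1 (-6.11 points) and Col1a1 (-4.48) and smooth muscle myosin, Myh11 (-3.56). Genes of other tissues (66 windows, 11 of 18 genes), included as a contrast, went from 32.0% ± 0.200 to 36.4% ± 1.56 and 35.9% ± 1.08, with 11 (16.7%) called higher and none lower. Its median difference was 3.32 points.

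T cell genes (202 windows, 26 of 34 genes) had means of 32.4% ± 0.350 in saline, 35.1% ± 1.16 in OVA and 36.1% ± 0.774 in DSE mice, with 29 (14.4%) called higher and 4 (1.98%) lower in OVA vs. saline, shares near those of all partly methylated distal windows, and a median of 2.09 points. Runx3, a transcription factor of cytotoxic T cells, had 6 of 19 called higher. The window over an exon of Runx3 had 17.7, 18.9 and 17.6% in saline, 36.3, 37.8 and 40.0% in OVA and 34.3, 48.5, 39.4 and 41.4% in DSE mice, on 883 to 1702 calls. Saline mice hardly varied there, and OVA and DSE mice overlapped. Cd28, a costimulatory receptor, had 4 of 13 called higher, while both windows of Il7r, the interleukin 7 receptor, were called lower. Prkcq had 2 of 14 called lower and none higher. Tcf7 had none of 11 called, with a median of -5.47 points, and Bcl11b none of 20, with 1.75 points.

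Genes of the type 2 response (62 windows, 13 of 28 genes) went from 31.6% ± 0.744 in saline to 35.9% ± 2.02 in OVA and 36.7% ± 0.772 in DSE mice, with 11 (17.7%) called higher and none lower and a median of 2.21 points. Gata3, the master transcription factor of type 2 helper T cells and a member of both lists, had 3 of 4 windows called higher, with means of 37.8, 49.6 and 48.0%. Median differences of OVA from saline were negative, with no window called, at Crlf2 (-3.13 points), Areg (-3.11), Il1rl1 (-0.65) and Il4 (-0.43). In an intron of Stat6, which transmits interleukin 4 and 13 signals, saline mice had 24.9, 28.2 and 20.1%, OVA mice 35.7, 47.2 and 54.2%, and DSE mice 45.1, 50, 46.2 and 50.1%. The window with the most calls of this list, 14.2 kb from Il5, the eosinophil growth factor, had 42.4, 41.2 and 43.4%, 37.3, 39.2 and 45%, and 43.8, 39.3, 46.4 and 36.5%, with all groups overlapping. B cell genes (76 windows, 11 of 22 genes) went from 34.4% ± 1.09 to 37.3% ± 1.03 and 37.1% ± 0.607, with 7 (9.21%) called higher and 1 (1.32%) lower and a median of 1.90 points.

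Myeloid genes (82 windows, 17 of 40 genes) had the smallest median difference of OVA from saline among the 9 lists with a higher OVA mean, 0.80 points, with means of 28.1% ± 0.564, 29.7% ± 0.345 and 30.8% ± 1.1 and 5 windows (6.10%) called higher and 1 (1.22%) lower. Arginase 1 (Arg1), an enzyme of macrophages in type 2 inflammation, had 4 of these 5, and its 8 windows averaged 35.9, 47.7 and 47.5%. In the Arg1 window with the most calls, 1736 to 2608 per mouse, saline mice had 26.8, 25.4 and 30.2%, OVA mice 38.5, 43.7 and 45.5%, and DSE mice 32.8, 39.6, 38.2 and 39.5%. Saline mice were lowest there, and DSE mice 1 and 3 lay between them and the OVA mice.

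The pan-leukocyte list was the only one of the 10 with a lower mean in OVA than in saline mice. Its 162 windows at 16 of 27 genes had 37.3, 35.5 and 35.9% in saline mice, 34.8, 34.5 and 34.4% in OVA mice, and 35.2, 34.1, 34.9 and 33.7% in DSE mice. Saline mice stood above all others, with a median difference over windows of -2.11 points for OVA and -2.45 points for DSE from saline. In OVA vs. saline 22 windows (13.6%) were called lower and 12 (7.41%) higher, where 1.57% and 14.2% of all partly methylated distal windows were. Lcp1, the actin-bundling plastin of leukocytes, had 7 of 13 called lower (36.2, 25.4 and 27.5%), Ptprc, which encodes CD45, 4 of 8 (41.4, 34.9 and 35.4%), and Arhgap15 3 of 9.

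In the Lcp1 window with the most calls, 2801 to 3700 per mouse (chr14:75179001-75180000, an intron), saline mice had 43.9, 43.6 and 41.3%, OVA mice 31.9, 25.1 and 27.7%, and DSE mice 31.2, 32.9, 35.7 and 29.7%. All OVA and DSE mice were below all saline mice. A second intronic window of Lcp1 had 48.1, 42.6 and 43.0%, 24.9, 19.6 and 24.6%, and 31.2, 29.6, 30.1 and 36.0%, with DSE mice between the other groups. Their 8.39 points above OVA mice were under the 10 of a call. Inpp5d, a lipid phosphatase of blood cells, had a median of -6.52 points and no window called of 14. The list was not uniform: Runx1 and Vav1 had 3 windows each called higher and none lower, with medians of 2.62 and -3.98 points. Elmo1, with the most windows of the list, had 4 of 35 called higher and 2 lower, with a median of 1.57 points.

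**Figure D4:**
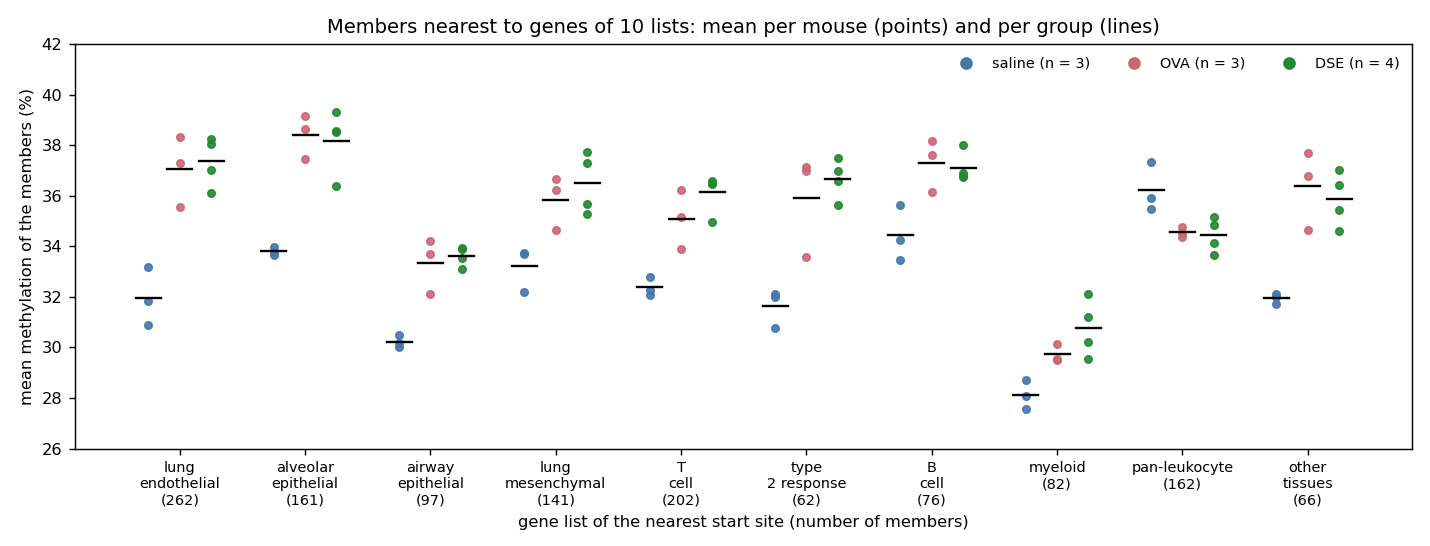
Mean methylation (percent) of the partly methylated distal windows (members) nearest to the genes of each of 10 lists, 1 point per mouse and a bar at the group mean, on an axis that does not start at 0. OVA mice lie above saline mice in 9 lists and below them in the pan-leukocyte list, where saline mice have 35.5 to 37.3% and OVA mice 34.4 to 34.8%.

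The means of DSE and OVA mice overlapped in all 10 lists. With 3 against 4 mice the exact permutation test could not go below p = 0.0571, so no list could pass 0.05. The two-sided exact permutation p over mice was 0.171 for the T cell and the myeloid list and 0.457 to 0.857 for the others, before any adjustment. Per list, 0 to 4 windows (0 to 3.23%) were called higher and 0 to 2 (0 to 2.63%) lower in DSE vs. OVA. The shares were 1.95 and 0.864% over all partly methylated distal windows, and 0.887 and 0.698% over all windows tested. Those called included 3 of the mesenchymal list at Col1a2, a collagen chain, 2 of the T cell list at Icos, a costimulatory receptor, and, called lower, 2 of the B cell list at Bank1. The window 51.5 kb from Crlf2, the receptor of thymic stromal lymphopoietin, had 10.7, 10.3 and 14.3% in OVA mice and 28.8, 16.8, 43.4 and 26.3% in DSE mice (19 points, likelihood ratio test adjusted p = 9.39e-07; limma adjusted p = 0.211), with a depth ratio of 2.09. The window over an exon of Cx3cr1, the fractalkine receptor, had 28.8, 25.6 and 6.82% in OVA and 15.9, 46.8, 61.5 and 46.3% in DSE mice, with overlapping groups.

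**Figure D5:**
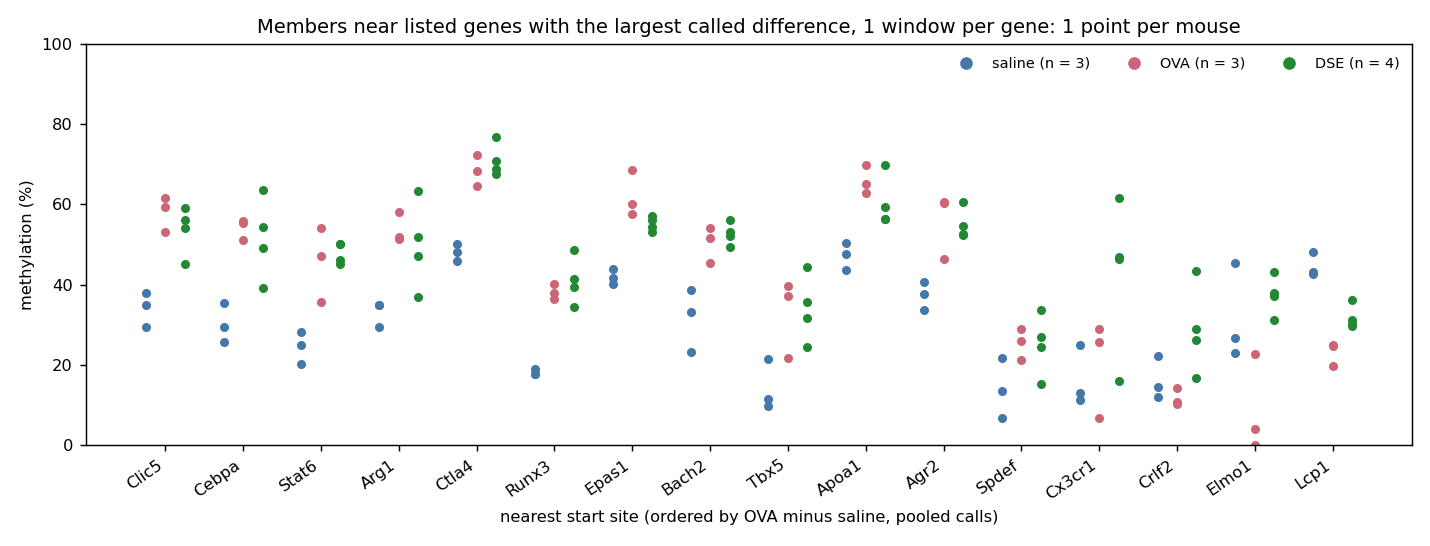
Methylation (percent) of each mouse, 1 point per mouse, in the windows (members) of each gene list with the largest called differences, 1 window per gene, ordered by the difference of OVA from saline. At Lcp1 the OVA mice (19.6 to 24.9%) lie below the saline mice (42.6 to 48.1%), while at Runx3 they lie above (36.3 to 40.0% vs. 17.6 to 18.9%).

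The partly methylated state formed long unbroken stretches in places, with 37 regions of 5000 bp or more. The longest 2 measured 7000 bp and held 12 windows each. That at chr11:97531501-97538500 lay over the gene Srcin1, an inhibitor of the SRC kinase, with a median of 34 CpGs per window and 20.7% methylation in saline, 19.4% in OVA and 21.6% in DSE mice. That at chr19:53421501-53428500, nearest to the splicing factor gene Smndc1, had 28.6, 30.9 and 30.5%.

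The next longest runs differed more. At chr4:133090001-133096500, near Wasf2, a regulator of actin branching, the saline mice had 24.1, 23.8 and 28.0% and the OVA mice 29.1, 33.7 and 35.5%, with 4 of 10 windows called higher. In the neighbourhood, at chr4:133042001-133048000 in Ahdc1, a gene for a DNA-binding protein, saline mice had 38.4, 37.6 and 41.7%, OVA mice 47.5, 53.3 and 52.9%, and DSE mice 45.2, 50.7, 51.3 and 51.6%, with 5 of 10 windows called higher. At chr18:35937001-35943500, near Psd2, the order was the reverse, with 26.5, 29.0 and 29.6% in saline, 22.4, 19.2 and 21.5% in OVA, and 24.7, 24.2, 24.6 and 24.3% in DSE mice, the last group between the others without overlap. None of the 5 runs held a window called between DSE and OVA mice.

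By gene, Atg7, an enzyme of autophagy, was nearest to the most windows, 57 of its 82 distal ones, in 25 regions between 10.6 and 110.9 kb from its start site. Their mean was 28.8, 26.1 and 26.8% in saline, 29.2, 31.0 and 31.8% in OVA, and 29.4, 30.5, 31.8 and 30.2% in DSE mice, with 4 windows called higher in OVA vs. saline. Gm13090 had 54 windows, 4930505M18Rik 53, and Med13l, a subunit of the Mediator complex, and Zfp608, a zinc finger gene, 49 each. Of these, Gm13090 and Med13l had 9 windows each called higher in OVA vs. saline and the other 2 had 8 each. Between DSE and OVA mice only Zfp608 had calls, 1 in each direction.

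A set of 9 short motifs bound by families of transcription factors were searched for in the windows on both strands. They were AP-1 (TGANTCA), ETS (GAGGAAG), RUNX (TGTGGTT), FOX (TGTTTAC), TEAD (ACATTCC), NKX2 (CACTTGA), CEBP (TTGCNNAA) and CTCF (AGGGGGC), where N is any base. The letters searched for the GATA family were AGATAA. The letters of different motifs can share bases in a window. ETS was in 35.9% of the partly methylated distal windows, 30.3% of distal windows at 80% or more and 33.9% of all windows. FOX was in 16.1, 12.4 and 13.1%, and CTCF in 17.4, 11.5 and 17.1%. AP-1 was in 28.1, 26.7 and 25.7%, RUNX in 21.9, 22.9 and 21.6%, GATA in 45.5, 43.0 and 41.1%, and TEAD in 14.6, 12.6 and 13.3%. NKX2 was in 13.5, 13.2 and 12.7%, and CEBP in 36.0, 34.3 and 34.0%.

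Windows called higher and lower in OVA vs. saline held different shares of several motifs. FOX was in 22.2% of the higher and 11.3% of the lower windows, and TEAD in 18.3 and 10.5%. RUNX was in 18.8% of the higher and 33.0% of the lower windows, ETS in 32.2 and 44.3%, and AP-1 in 26.3 and 33.2%. NKX2 (14.0 and 13.9%) and CEBP (35.4 and 37.0%) were alike in both. Turned around, the 9966 windows with the FOX letters had a median difference of OVA from saline of 3.78 points, and 19.6% were called higher, against 2.40 points and 13.1% of those without. Windows with the RUNX letters had a median of 1.77 points and 2.37% were called lower, against 2.79 points and 1.35% of those without. These shares are descriptions, with no test, and a match does not show that a factor binds.

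For orientation, the limits passed between near neighbours. Just inside the lower limit lay a pair of windows near Tm4sf1 that share all their calls, with a pooled saline level of 10.0%, and just outside lay windows of Disp3 and Pakap with 9.99% each. Just inside the upper limit lay windows of Pdgfrb and Prune2 with 49.99%, and just outside a pair near Sgk3 with 50%. The windows nearest to the limit of distance lay 10001 bp from the start sites of Amotl1 and Itgb3 on the inside and 10000 bp from those of Amotl1 and Cd164 on the outside.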

How the data were processed

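Lung DNA of 10 mice was analysed. The deposited values are counts, not normalized: per the labels' processing notes the authors used cutadapt 1.10, Bismark 0.19.0 and methylKit 1.0.0 with mm10 (their roles and settings are not given there), and summed methylated and unmethylated CpG calls of each mouse in 1000 bp windows that start every 500 bp. The authors' study describes 1 herbal extract, so the Herb labels were read as DSE. Calls of CpGs on the same molecule are not independent, and depth sets precision.

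From these counts, percent methylation per mouse and window was computed (Python 3.11.15, numpy 2.4.6, scipy 1.17.1, pandas 2.3.3). The likelihood ratio test of a logistic model used the pooled calls of the 2 groups compared, with no overdispersion term and Benjamini-Hochberg adjustment over 412413 windows. Percent differences of single windows are of pooled calls. Means over windows, and differences between such means, weight each window and each mouse of a group equally. limma 3.58.1 (R 4.3.3) used M-values with a pseudocount of 1 and all 3 groups. Samples of a group are separate mice. Both tests were run on simulated data first. Nearest start sites, exons and introns came from 45756 RefSeq transcripts of GRCm38, and sequences from the RefSeq genome of that build.

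The windows and gene lists were chosen with earlier results of these data known. Windows named were the 6 largest called differences without overlap in each direction, 1 per region and gene, for DSE vs. OVA and OVA vs. saline; the 10 smallest limma p-values; the 5 longest runs; per gene list, the window with the most calls and the 2 largest called differences; the windows beside each limit; and the 5 genes with the most windows. No chromosome 18 sequence is printed. The alternatives were other depth minimums, limits, tests, scaling, window choices and each mouse left out.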

Additional observations from a re-analysis of the deposited data

Results flagged for a closer look

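In the windows of the T cell list 1 DSE mouse stood apart from the others of its group: DSE mouse 1 had a mean methylation of 35%, while DSE mice 2, 3 and 4 had 36.5, 36.5 and 36.6%. The gap to the nearest mouse was 0.945 of the range of the group. In the windows of the B cell list DSE mouse 2 had 38.0%, and DSE mice 1, 3 and 4 had 36.8, 36.8 and 36.9%, a gap of 0.879 of the range. Chance alone sets a mouse apart in this way in about 1 of 20 groups. Both cases came from a search that took in 54 named windows besides the gene lists, so some would arise by chance.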

How the results depend on the processing

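The counts of called windows followed the test and its limits, given here as higher and lower for DSE vs. OVA, OVA vs. saline and DSE vs. saline. Taking every second window gave 625 and 262, 4390 and 496, and 4741 and 496, and limma then called 113 and 16 in DSE vs. OVA, with fewer windows tested. A difference of at least 20 points gave 194 and 57, 620 and 29, and 596 and 21. limma with the 10 point limit gave 207 and 30, 3549 and 263, and 5521 and 467 at an adjusted p under 0.05. At 0.01 it gave 3 and 0, 0 and 1, and 252 and 9, while an unadjusted p under 0.05 and 10 points held for 1335 and 637 in DSE vs. OVA and 9017 and 1048 in OVA vs. saline. An F test with a scale for overdispersion called 0 in every comparison, with smallest adjusted p-values of 0.438, 0.225 and 0.0707, and at an unadjusted p under 0.05 it gave 1023 and 408, 6835 and 713, and 8234 and 806. Keeping windows with calls within 1.5 times, an alternative chosen after seeing the data, gave 590 and 299 in DSE vs. OVA and 105 and 8 by limma. Limits of 15 to under 45% in saline left 581 and 574 lower calls in OVA and DSE vs. saline, with means of 31.1% in saline and 34.9% in DSE mice. Windows chosen on all mice had means of 31.0, 33.0 and 33.4%, a difference of OVA from saline of 1.99 points, and 2000 and 2173 lower calls in OVA and DSE vs. saline; the cause was not tested. The difference of the DSE from the OVA mean turned to -0.20 points without OVA replicate 1 and ranged from -0.20 to 0.64 with 1 mouse left out. Leaving out 1 mouse gave 1055 to 1447 higher and 427 to 750 lower calls in DSE vs. OVA, 7522 to 10772 and 910 to 1286 in OVA vs. saline, and 8509 to 10883 and 864 to 1240 in DSE vs. saline, and by limma 5 to 229 and 2 to 34 in DSE vs. OVA. Mice with the same number deviated together little (correlations of -0.036 to 0.094 over 9 pairs, -0.080 to 0.057 over 24 other pairs). These values gave no clear sign of pairing by number, but they cannot exclude it. With the replicate number as a block the calls were 1174 and 465, 8778 and 967, and 9041 and 900, and limma called 2 and 0 in DSE vs. OVA. Other depth minimums, distances of over 20 kb and scaling kept each count of the likelihood ratio test within 1.5 times, and a minimum of 50 calls did so for limma, for which distance and scaling were not tried. Depth limits windows near 20 calls most.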

Other observations

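Of the 62039 windows, 4698 had the same calls in every mouse as the window 500 bp before, because all their CpGs with calls lie in the shared bases. By number of windows, the gene after Zfp608 was Ank3, a membrane adaptor of neurons and epithelium, with 46 windows. Their mean was 33.9, 30.7 and 32.1% in saline mice, 34.2, 37.3 and 36.2% in OVA mice, and 37.0, 38.4, 37.9 and 37.7% in DSE mice, with 3 windows called higher and 1 lower in DSE vs. OVA. Hrh1, the histamine H1 receptor, had 45 of its 80 distal windows partly methylated in saline mice and none called in any comparison. Its means were 33.1, 30.8 and 33.0% in saline, 32.8, 34.0 and 34.6% in OVA, and 33.4, 35.5, 37.3 and 35% in DSE mice. Ank3 and Hrh1 were chosen after their values were seen.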
